A study of Homo sapiens with 3 samples.

Results

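The 9 genes described here encode proteins that decide whether a cell starts apoptosis: the BCL2 family genes BCL2A1, BCL2L1, MCL1, BCL2L11, PMAIP1, BID and BAK1, the protease gene CASP8 (caspase-8) and its regulator CFLAR. The rule that chose them names them by symbol, and they were chosen with earlier results of these data known. All 9 were found among 57773 rows of the expression table. Levels were measured by RNA sequencing in 3 lines of HaCaT, a spontaneously immortalised human keratinocyte line, and all 3 lines express the oncogenic HRAS form G12V. On top of this, the first line carried THG-1 S264A, the second wild-type THG-1 and the third an empty vector (THG-1 is the product of TSC22D4, and S264A has alanine in place of a serine). Each line was represented by 1 library, and no source used here states the promoter that drives the transgenes or whether a line is 1 clone or a pool. The empty-vector line carries the HRAS transgene too, so every comparison was made within RAS-transformed keratinocytes grown in serum.

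Apoptosis through mitochondria is held back by the anti-apoptotic proteins BCL-xL (from BCL2L1), MCL-1 (MCL1) and A1 (BCL2A1), which bind and block their pro-apoptotic relatives. BH3-only proteins such as BIM (BCL2L11), NOXA (PMAIP1) and BID occupy these blockers or act on the effector BAK (BAK1), which opens the outer mitochondrial membrane. At death receptors, caspase-8 starts the cascade and cleaves BID, while c-FLIP (CFLAR) joins the same complex and limits caspase-8. BCL2A1, BCL2L1 and CFLAR are known as genes that NF-kB can induce, and keratinocytes are known to rely on BCL-xL and MCL-1 for survival.

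The promoter windows of the 4 members that stood highest in wild-type THG-1 relative to empty vector are shown. They lie at annotated starts, and which starts these cells use was not measured. Each window runs from 250 bases before to 50 bases after a RefSeq start, 5′ to 3′ on the strand of the gene, in build GRCh38.p14. Capitals mark a match to the kappaB consensus, the motif bound by NF-kB, or to the AP-1 motif TGANTCA, searched on both strands. BCL2L1 has 2 windows, and the first listed window is shown for BID and CFLAR. They lie at chr15:79971147-79971446 (BCL2A1, minus strand), chr20:31723914-31724213 and chr20:31722819-31723118 (BCL2L1, minus strand), chr22:17774420-17774719 (BID, minus strand) and chr2:201118466-201118765 (CFLAR, plus strand).
BCL2A1: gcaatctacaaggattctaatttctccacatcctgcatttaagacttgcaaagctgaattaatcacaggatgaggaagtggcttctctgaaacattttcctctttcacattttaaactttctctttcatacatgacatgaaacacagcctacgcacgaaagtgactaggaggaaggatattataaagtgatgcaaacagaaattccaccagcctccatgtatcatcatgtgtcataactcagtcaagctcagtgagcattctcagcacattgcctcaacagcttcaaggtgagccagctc
BCL2L1 start 1: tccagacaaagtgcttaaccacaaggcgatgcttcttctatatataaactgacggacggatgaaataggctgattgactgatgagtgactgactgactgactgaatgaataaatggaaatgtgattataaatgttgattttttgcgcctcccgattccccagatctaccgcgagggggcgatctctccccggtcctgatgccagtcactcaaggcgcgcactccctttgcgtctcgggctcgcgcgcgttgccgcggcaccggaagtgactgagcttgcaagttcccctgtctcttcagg
BCL2L1 start 2: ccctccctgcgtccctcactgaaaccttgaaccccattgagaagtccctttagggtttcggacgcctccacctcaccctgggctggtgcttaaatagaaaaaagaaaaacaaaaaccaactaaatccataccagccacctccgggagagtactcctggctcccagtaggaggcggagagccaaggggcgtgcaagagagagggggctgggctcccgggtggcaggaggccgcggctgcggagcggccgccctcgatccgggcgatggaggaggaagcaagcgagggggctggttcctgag
BID start 1: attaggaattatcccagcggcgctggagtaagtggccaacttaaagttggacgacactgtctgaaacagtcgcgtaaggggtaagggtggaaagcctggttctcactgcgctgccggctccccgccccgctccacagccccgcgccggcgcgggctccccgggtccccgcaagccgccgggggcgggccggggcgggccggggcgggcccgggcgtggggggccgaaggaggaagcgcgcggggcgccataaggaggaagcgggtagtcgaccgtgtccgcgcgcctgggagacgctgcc
CFLAR start 1: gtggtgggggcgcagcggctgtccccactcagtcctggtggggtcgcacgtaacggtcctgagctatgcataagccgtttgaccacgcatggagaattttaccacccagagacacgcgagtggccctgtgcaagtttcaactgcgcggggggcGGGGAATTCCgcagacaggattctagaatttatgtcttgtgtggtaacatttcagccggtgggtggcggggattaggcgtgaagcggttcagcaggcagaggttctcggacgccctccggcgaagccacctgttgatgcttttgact

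Windows were found for 8 of the 9 members, 18 in all, of which several overlap. A kappaB match stood in 1 window, that of the first CFLAR start, from 97 to 88 bases before the start. AP-1 matches stood in 3 windows, 1 of CFLAR and 2 of CASP8. Over all 35116 RefSeq windows of the same 300 bases, 11.3% held a kappaB match and 7.71% an AP-1 match. The matches did not overlap each other. A match describes letters only, and the windows without one leave the binding of either factor unaddressed.

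The depth was 14022885 reads for S264A, 12733479 for wild-type THG-1 and 32055052 for empty vector, recovered from the steps of the values. Levels are RPKM as the authors deposited them, which divide the reads of a gene by its length in kilobases and by the depth of the library. Intervals are 95% counting intervals on recovered reads. They cover counting error only, reads are not independent molecules, and with 1 library per line the spread between cultures is unknown and no p-value was computed. TSC22D4 was at 51.1 RPKM in S264A, 64.9 RPKM in wild type and 7.98 RPKM with empty vector. All 8 keratinocyte markers were at or above 17.4 RPKM in every library. Fibroblast, melanocyte and endothelial markers reached at most 1.70 RPKM, and the fibroblast markers PDGFRA and LUM and the melanocyte marker TYR were at 0 in all libraries. All differences below use the values as deposited unless a scaling is named. Scaling to the same upper quartile moved the median of all genes to -0.22 (log2) for wild type against empty vector and to -0.15 for S264A against empty vector, and scaling to an equal sum moved the first of these medians to -0.13 and that of S264A against wild type to 0.11.

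Among the anti-apoptotic genes, BCL2L1 was about 2-fold higher with either form of THG-1, MCL1 stayed near its empty-vector level with wild-type THG-1, and BCL2A1 was detected with wild-type THG-1 only. BCL2L1, which encodes BCL-xL, stood at 40.2 RPKM (1869 reads) in S264A, 42.7 RPKM (1800 reads) in wild type and 20.2 RPKM (2151 reads) with empty vector. Both THG-1 libraries were high and close to each other, and the intervals of neither reached that of the empty-vector library (19.4 to 21.1 RPKM). The ratio was 2.11 (1.98 to 2.24) for wild type over empty vector and 1.99 (1.87 to 2.11) for S264A over empty vector, which share the empty-vector library. Set directly against wild type, S264A had a BCL2L1 ratio of 0.943 (0.883 to 1.01), an interval that includes 1. This difference was positive with scaling to an equal sum (0.03 on the log2 scale) and in the authors' normalised columns (0.05). Per gene, the values do not separate the long BCL-xL transcript from its short splice form.

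MCL1 was the member with the highest level in every library. It was at 55.5 RPKM (3281 reads) in S264A, 46.9 RPKM (2517 reads) in wild type and 47.1 RPKM (6370 reads) with empty vector. S264A was the high library, with a ratio of 1.18 (1.12 to 1.25) over wild type and 1.18 (1.13 to 1.23) over empty vector. Upper-quartile scaling left a log2 difference of 0.03 between S264A and empty vector. Wild type over empty vector gave 0.995 (0.949 to 1.04), and on the log2 scale it was between -0.16 and -0.26 under the other scalings and in the authors' normalised columns.

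BCL2A1 encodes A1, a short-lived relative of BCL-xL known from leukocytes and melanocytic cells. It had 0 reads in S264A, 10 reads in wild type and 0 reads with empty vector, at the annotated length of 1089 bases. The wild-type level was 0.721 RPKM (0.346 to 1.33), below the 1 RPKM required for the fold counts below. A floor of 3 reads per library corresponds to 0.196 RPKM in S264A and 0.0859 RPKM with empty vector. The wild-type value was 3.67 times the S264A floor and 8.39 times the empty-vector floor. These are not lower bounds of the fold. The counting intervals of the libraries with 0 reads reached up to 0.242 RPKM in S264A and 0.106 RPKM with empty vector. That of wild type began at 0.346 RPKM. The leukocyte markers summed to 2.12 RPKM in S264A, 5.58 RPKM in wild type and 1.25 RPKM with empty vector. Of these 8 markers, 1 was at or above 1 RPKM in S264A and in wild type and 0 with empty vector, namely CD68, an endosomal protein that epithelial cells also make (1.70, 5.21 and 0.941 RPKM in the same order). The pan-leukocyte gene PTPRC was at 0 in wild type, as was CD3E. The 6 melanocyte markers summed to 1.31, 2.09 and 1.15 RPKM in the same order, and MITF was the only one at or above 1 RPKM, in wild type (1.70 RPKM). The part of these markers in the BCL2A1 level was not tested.

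**Figure D1:**
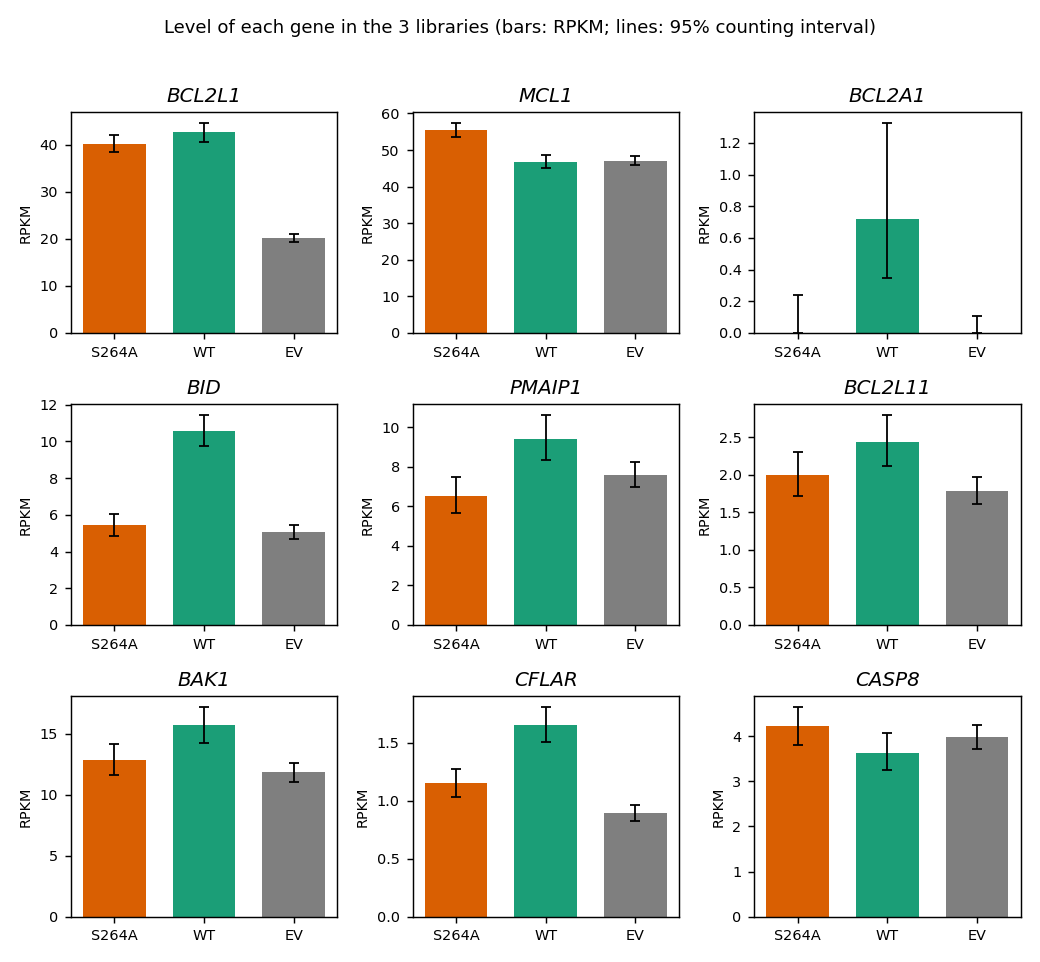
RPKM of each of the 9 genes (vertical axis, from 0, own scale per gene) in the S264A, wild-type (WT) and empty-vector (EV) libraries. Bars are the value of the 1 library per line and lines are 95% counting intervals. BCL2L1 is high in both THG-1 libraries, BID and CFLAR are highest in wild type, and BCL2A1 is above 0 in wild type only.

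The 3 BH3-only members were each highest with wild-type THG-1, and BID by the widest margin. BID, whose protein links caspase-8 to mitochondria, was at 5.42 RPKM (336 reads) in S264A, 10.6 RPKM (594 reads) in wild type and 5.04 RPKM (714 reads) with empty vector. Wild type stood alone, and the S264A interval (4.86 to 6.04 RPKM) overlapped that of empty vector (4.68 to 5.43 RPKM). The ratio was 2.09 (1.88 to 2.34) for wild type over empty vector. For S264A over wild type it was 0.514 (0.448 to 0.588), a level 1.95-fold lower in S264A. S264A over empty vector gave 1.08 (0.942 to 1.23), an interval that includes 1, and the difference was negative (-0.09 on the log2 scale) with upper-quartile scaling.

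PMAIP1 encodes NOXA, which binds MCL-1. It was at 6.51 RPKM (204 reads) in S264A, 9.42 RPKM (268 reads) in wild type and 7.58 RPKM (543 reads) with empty vector. S264A was low and wild type high, with intervals that do not overlap each other. The ratio was 0.691 (0.573 to 0.832) for S264A over wild type, 1.24 (1.07 to 1.44) for wild type over empty vector and 0.859 (0.728 to 1.01) for S264A over empty vector. With upper-quartile scaling the difference of wild type and empty vector was 0.05 on the log2 scale.

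BCL2L11 encodes BIM, a BH3-only protein that ERK signalling is known to mark for degradation. It was low in all libraries, at 1.99 RPKM (186 reads) in S264A, 2.44 RPKM (207 reads) in wild type and 1.78 RPKM (381 reads) with empty vector. The ratio of wild type over empty vector was 1.37 (1.15 to 1.62). S264A was between the other libraries, with ratios of 0.816 (0.666 to 0.999) over wild type and 1.12 (0.931 to 1.33) over empty vector. The second of these turned to -0.03 on the log2 scale with upper-quartile scaling. With the same scaling the log2 difference of wild type and empty vector fell from 0.31 to 0.13. BCL2L11 shares exon sequence with MIR4435-2HG, on the opposite strand, at 4.84, 4.49 and 4.72 RPKM in S264A, wild type and empty vector. This is above BCL2L11 itself in every library. Without stated strandedness the shared reads cannot be told apart.

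BAK1, the gene of the membrane-opening effector BAK, was at 12.8 RPKM (408 reads) in S264A, 15.7 RPKM (453 reads) in wild type and 11.8 RPKM (860 reads) with empty vector. Wild type was highest, and its interval (14.3 to 17.2 RPKM) lay above those of the other libraries (11.6 to 14.1 RPKM in S264A and 11.1 to 12.7 RPKM with empty vector). The ratio was 1.33 (1.18 to 1.49) for wild type over empty vector and 0.818 (0.714 to 0.937) for S264A over wild type. S264A over empty vector gave 1.08 (0.962 to 1.22), which became -0.08 on the log2 scale with upper-quartile scaling. With the same scaling the log2 difference of wild type and empty vector fell from 0.38 to 0.13. The pseudogene BAK1P1 was at 0.613, 0.450 and 0.253 RPKM in S264A, wild type and empty vector, and how reads shared with BAK1 were assigned is not stated.

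At the level of caspase-8, the regulator differed between the lines more than the protease in the values as deposited. CFLAR, which encodes c-FLIP, was at 1.15 RPKM (363 reads) in S264A, 1.65 RPKM (474 reads) in wild type and 0.893 RPKM (645 reads) with empty vector. The 3 intervals did not overlap, with wild type high, S264A between and empty vector low. The ratio was 1.85 (1.64 to 2.09) for wild type over empty vector, 1.29 (1.13 to 1.47) for S264A over empty vector and 0.695 (0.605 to 0.799) for S264A over wild type. CASP8 was at 4.21 RPKM (402 reads) in S264A, 3.63 RPKM (315 reads) in wild type and 3.98 RPKM (868 reads) with empty vector. Its intervals overlapped between all libraries, and its ratios were 0.914 (0.801 to 1.04) for wild type over empty vector, 1.06 (0.938 to 1.19) for S264A over empty vector and 1.16 (0.997 to 1.35) for S264A over wild type. The second of these turned to -0.10 on the log2 scale with upper-quartile scaling, where CFLAR stood at 0.08. For wild type against empty vector the CASP8 difference went from -0.10 to -0.31 with upper-quartile scaling and to -0.23 with equal-sum scaling. CFLAR over CASP8, as a ratio of RPKM, was 0.273 in S264A, 0.455 in wild type and 0.225 with empty vector. The length implied for CFLAR, 22528 bases, was 3.31 times that for CASP8, 6808 bases. These lengths join the exons of all isoforms, so that a level per length can understate genes with long rare exons, and the long and short c-FLIP forms are not separated. CFLAR-AS1, on the opposite strand, was at 0.135, 0.223 and 0.138 RPKM in S264A, wild type and empty vector, and without stated strandedness its shared reads cannot be told apart from those of CFLAR. The same holds for IMPDH1P10, a pseudogene on the opposite strand, at 0.509 RPKM in S264A and 0 in wild type and with empty vector. BCL2L1 also shares exon sequence with a gene on the opposite strand, as BCL2L11 does with MIR4435-2HG. MCL1 shares exon sequence with a gene on its own strand, ADAMTSL4-AS1 (0.728, 0.962 and 1.15 RPKM in S264A, wild type and empty vector).

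**Figure D2:**
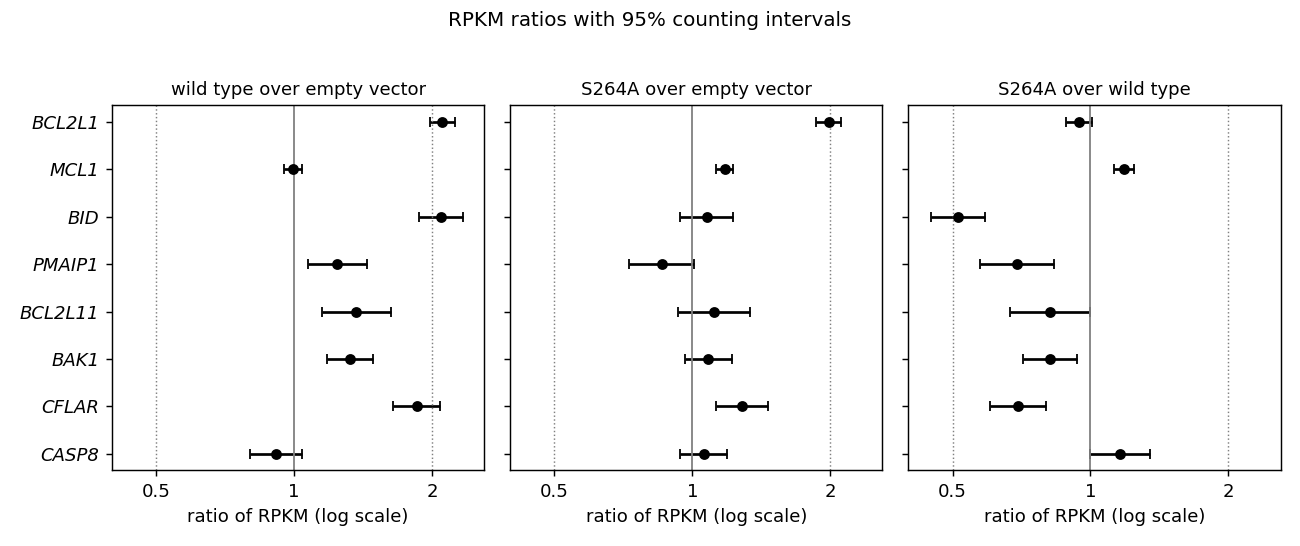
Ratio of RPKM (horizontal axis, log scale) of the 8 members with reads in every library, for wild type over empty vector, S264A over empty vector and S264A over wild type. Points are the ratios, lines their 95% counting intervals, the solid line marks 1 and the dotted lines 0.5 and 2. BCL2L1 stands near 2 in both comparisons with empty vector, while BID is near 2 for wild type over empty vector and near 0.5 for S264A over wild type.

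Across the members, wild type over empty vector gave a counting interval above 1 for 6 of the 8 with reads in both libraries (BCL2L1, BID, CFLAR, BCL2L11, BAK1 and PMAIP1) and spanning 1 for 2 (MCL1 and CASP8). Of all 11913 genes compared in this way, 32.7% had an interval above 1 and 32.5% one below 1. The intervals rest on the values as deposited and were not recomputed under other scalings. With upper-quartile scaling the log2 differences were 0.79 for BCL2L1, 0.71 for BID and 0.35 for CFLAR. They were 0.13 for BCL2L11 and BAK1, 0.05 for PMAIP1, -0.26 for MCL1 and -0.31 for CASP8, so the counts depend on the scaling. S264A over empty vector gave 3 intervals above 1 (BCL2L1, CFLAR and MCL1) and 5 spanning 1, where 30.5% of all genes lay above 1 and 26.7% below. S264A over wild type gave 5 intervals below 1 (BID, PMAIP1, CFLAR, BAK1 and BCL2L11), 1 above 1 (MCL1) and 2 spanning 1 (BCL2L1 and CASP8), where 28.7% of all genes lay above 1 and 26.3% below. The BCL2L11 interval ended at 0.999. At 2220 bases, a shorter length that also fitted, it would be wider, so that its place below 1 is not secure. These intervals cover counting error only, so that with 1 library a line an interval on one side of 1 was common among all genes. BID in S264A lay close to empty vector, whereas BCL2L1 in S264A lay close to wild type.

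By the fold rule, at least 2-fold on the scale of log2 (RPKM + 1) among genes that reached 1 RPKM in either library compared, 1 of 8 members (BCL2L1) was higher in wild type than with empty vector and 0 were lower. Of all 11993 genes in that comparison, 4.53% were higher and 1.54% lower by the same rule. BCL2L1 lay at 1.04 on this scale, just past the threshold of 1. BID lay just under it, at 0.94, although its plain ratio was above 2. With upper-quartile scaling BCL2L1 stood at 0.79, against a median gene at -0.22, and the count was 0. The log2 difference was higher than that of 95.8% of all genes compared for BCL2L1, of 94.97% for BID and of 85.9% for CFLAR. In S264A against empty vector 0 of 8 members passed the rule in either direction, with 2.99% of 12010 genes higher and 0.824% lower. BCL2L1 stood at 0.96, above 96.8% of genes compared. In S264A against wild type 0 of 8 passed, with 1.55% of 12069 genes higher and 2.23% lower, and BID stood at -0.85, above only 3.25% of genes. The median of the 8 members was 0.34 for wild type against empty vector, 0.11 for S264A against empty vector and -0.24 for S264A against wild type. The medians of all genes compared were -0.0061, 0.016 and 0.021 in the same order.

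On the per-length scale, the order of the levels was similar in all libraries: MCL1, BCL2L1 and BAK1 led, followed by PMAIP1 and BID, then CASP8, BCL2L11, CFLAR and BCL2A1. In wild type BID stood above PMAIP1, with overlapping intervals (9.73 to 11.4 and 8.32 to 10.6 RPKM). In S264A PMAIP1 stood above BID, again with overlapping intervals, and with empty vector PMAIP1 stood above BID without overlap. No other neighbours in the order had overlapping intervals. Among genes at or above 1 RPKM in the same library, MCL1 was above 95.3% to 96.6% of genes and BCL2L1 above 94.9% in S264A, 94.6% in wild type and 88.8% with empty vector. BID was above 53.5%, 74.2% and 51.2% of genes in the same order.

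Summed by role, the 3 anti-apoptotic members reached 95.7 RPKM in S264A, 90.2 RPKM in wild type and 67.4 RPKM with empty vector. BCL2L1 made up 42.0% of this sum in S264A, 47.3% in wild type and 30.1% with empty vector, so that MCL1 was at 1.38, 1.10 and 2.33 times the BCL2L1 level in the same order. The 3 BH3-only members summed to 13.9 RPKM in S264A, 22.4 RPKM in wild type and 14.4 RPKM with empty vector, of which BID made up 39.0%, 47.1% and 35.0%. The anti-apoptotic sum was 6.87 times the BH3-only sum in S264A, 4.03 times in wild type and 4.68 times with empty vector. Both THG-1 libraries therefore held a larger anti-apoptotic sum than the empty-vector library, while wild type alone held a larger BH3-only sum. The sums and their ratio hold for these members only. The BH3-only genes BIK (7.78, 17.2 and 10.2 RPKM in S264A, wild type and empty vector) and BAD (13.2, 17.9 and 13.4 RPKM) are outside them. So is the anti-apoptotic gene BCL2L2 (6.16, 6.82 and 4.52 RPKM). These are transcript levels, and no protein was measured.

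**Figure D3:**
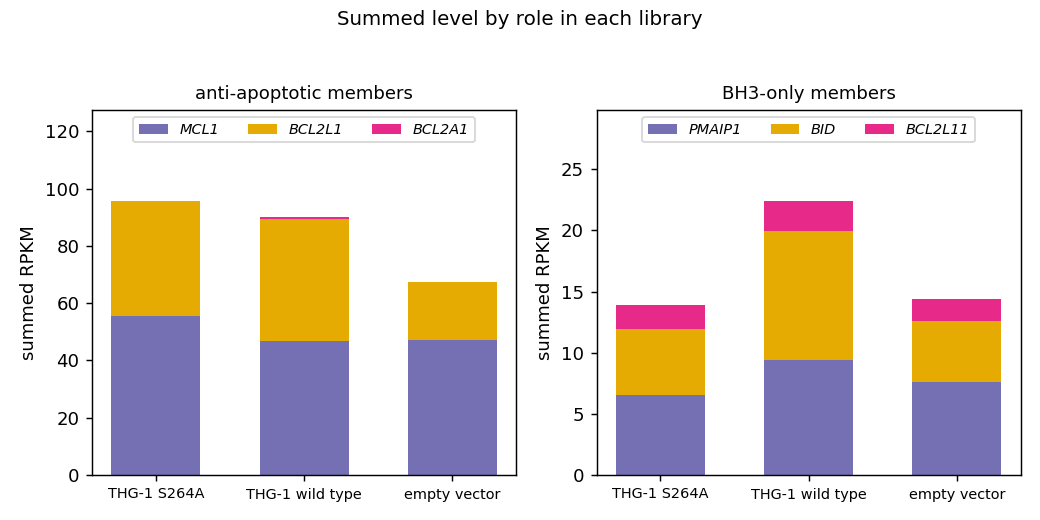
Summed RPKM (vertical axis, from 0) of the anti-apoptotic members MCL1, BCL2L1 and BCL2A1 (left) and the BH3-only members PMAIP1, BID and BCL2L11 (right) in the S264A, wild-type and empty-vector libraries. The BCL2L1 segment is larger in both THG-1 libraries, and the BID segment is largest in wild type.

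Other genes of the pathway were taken from 5 lists with 56 genes in the table. Of these, 42 could be compared between wild type and empty vector and 43 in each of the other comparisons. BAX and BBC3 were left out of the members and are in none of the lists, so the pathway is not covered in full. In wild type 3 of 42 were at least 2-fold higher than with empty vector and 0 lower. In S264A 0 of 43 were higher or lower than with empty vector, and 2 were lower and 0 higher than in wild type. By the same rule 4.53% of all genes were higher and 1.54% lower in wild type than with empty vector. For S264A the shares were 2.99% and 0.824% against empty vector, and 1.55% and 2.23% against wild type. With so few genes these counts do not set the lists apart from all genes.

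In the list of other BCL2 family genes, 1 of 9 was at least 2-fold higher in wild type than with empty vector. It was BOK, which encodes an effector related to BAK, at 13.3 RPKM in S264A, 19.4 RPKM in wild type and 6.77 RPKM with empty vector, a ratio of 2.86 (2.56 to 3.21) for wild type over empty vector. BOK in S264A was 1.96 times (1.73 to 2.21) the empty-vector level. BIK, a BH3-only gene, was at 7.78 RPKM in S264A, 17.2 RPKM in wild type and 10.2 RPKM with empty vector, and was 2.21-fold lower (1.74 to 2.83) in S264A than in wild type, the 1 of 9 past the rule there. Its log2 difference was -1.05, and the count was 0 under every other scaling. BAD, which growth factor signals are known to silence by phosphorylation, was at 13.2, 17.9 and 13.4 RPKM in S264A, wild type and empty vector. The BH3-only genes BMF and HRK, named after their values were seen, had other orders. BMF was lowest in S264A (0.471 RPKM), at 0.649 RPKM in wild type and highest with empty vector (1.24 RPKM). HRK was highest in S264A (1.04 RPKM), against 0.688 RPKM in wild type and 0.733 RPKM with empty vector. BCL2 itself stayed at or below 0.154 RPKM in every library. The list medians were 0.075 for wild type against empty vector, -0.28 for S264A against empty vector and -0.38 for S264A against wild type. BNIP3, a mitophagy gene named after its values were seen, was at 2.77, 5.95 and 5.60 RPKM in S264A, wild type and empty vector.

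In the list of death receptors, ligands and adaptors none of the 12 or 13 genes compared passed the rule in any comparison, and the medians were 0.31 for wild type against empty vector, 0.079 for S264A against empty vector and 0.080 for S264A against wild type. TNFRSF10A, which encodes the TRAIL receptor DR4, was at 9.16 RPKM in S264A, 18.2 RPKM in wild type and 9.56 RPKM with empty vector. Its ratio was 1.90 (1.72 to 2.11) for wild type over empty vector and 0.503 (0.443 to 0.571) for S264A over wild type, so that wild type stood alone as it did for BID. FADD, the adaptor that recruits caspase-8, was at 20.5, 21.7 and 19.4 RPKM, and the TNF receptor gene TNFRSF1A at 15.0, 11.6 and 16.2 RPKM in S264A, wild type and empty vector. MLKL, the effector of necroptosis, named after its values were seen, had 5.35 RPKM in S264A, 4.77 RPKM in wild type and 2.35 RPKM with empty vector.

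In the list of other caspases and apoptosome genes none of 11 passed the rule in any comparison, and the medians were -0.13, 0.11 and 0.21 for wild type against empty vector, S264A against empty vector and S264A against wild type. Cytochrome c (CYCS), which BAK releases, was at 22.2, 20.1 and 26.5 RPKM in S264A, wild type and empty vector. ENDOG, a mitochondrial nuclease gene, was at 21.0, 18.0 and 15.5 RPKM and AIFM1, the gene of a mitochondrial flavoprotein, at 10.4, 11.8 and 12.1 RPKM in the same order. The executioner gene CASP6, named after its values were seen, was at 4.42 RPKM in S264A, 2.27 RPKM in wild type and 4.54 RPKM with empty vector. Wild type was the low library, with ratios of 0.4999 (0.368 to 0.668) for wild type over empty vector, 0.973 (0.779 to 1.21) for S264A over empty vector and 1.95 (1.41 to 2.72) for S264A over wild type.

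Among the inhibitors of apoptosis 1 gene passed the rule, BIRC3, which encodes the ubiquitin ligase cIAP2 that keeps TNF receptor signalling away from caspase-8. It was at 0.972 RPKM in S264A, 4.95 RPKM in wild type and 0.713 RPKM with empty vector. This was 6.95-fold higher (5.82 to 8.33) in wild type than with empty vector and 5.10-fold lower (4.11 to 6.38) in S264A than in wild type. BIRC5 (survivin) was at 17.5, 16.5 and 21.3 RPKM and BIRC6, the gene of a very large inhibitor protein, at 8.16, 8.27 and 8.91 RPKM in S264A, wild type and empty vector. The list medians were -0.31 for wild type against empty vector (5 genes), -0.13 for S264A against empty vector (4 genes) and 0.082 for S264A against wild type (5 genes).

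In the list of inflammatory and epidermal caspases with their partners 1 of 5 genes was at least 2-fold higher in wild type than with empty vector, CASP1, which activates interleukin-1 beta. CASP1 was at 2.72 RPKM in S264A, 3.59 RPKM in wild type and 1.11 RPKM with empty vector, a ratio of 3.22 (2.55 to 4.07) for wild type over empty vector and 2.44 (1.91 to 3.12) for S264A over empty vector. With upper-quartile scaling none of the 5 passed. PYCARD, the inflammasome adaptor, was at 14.2, 11.6 and 14.3 RPKM and CASP4, a sensor of bacterial lipopolysaccharide, at 5.60, 6.46 and 6.90 RPKM in S264A, wild type and empty vector. The medians were 0.0021, -0.012 and -0.18 for wild type against empty vector, S264A against empty vector and S264A against wild type.

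**Figure D4:**
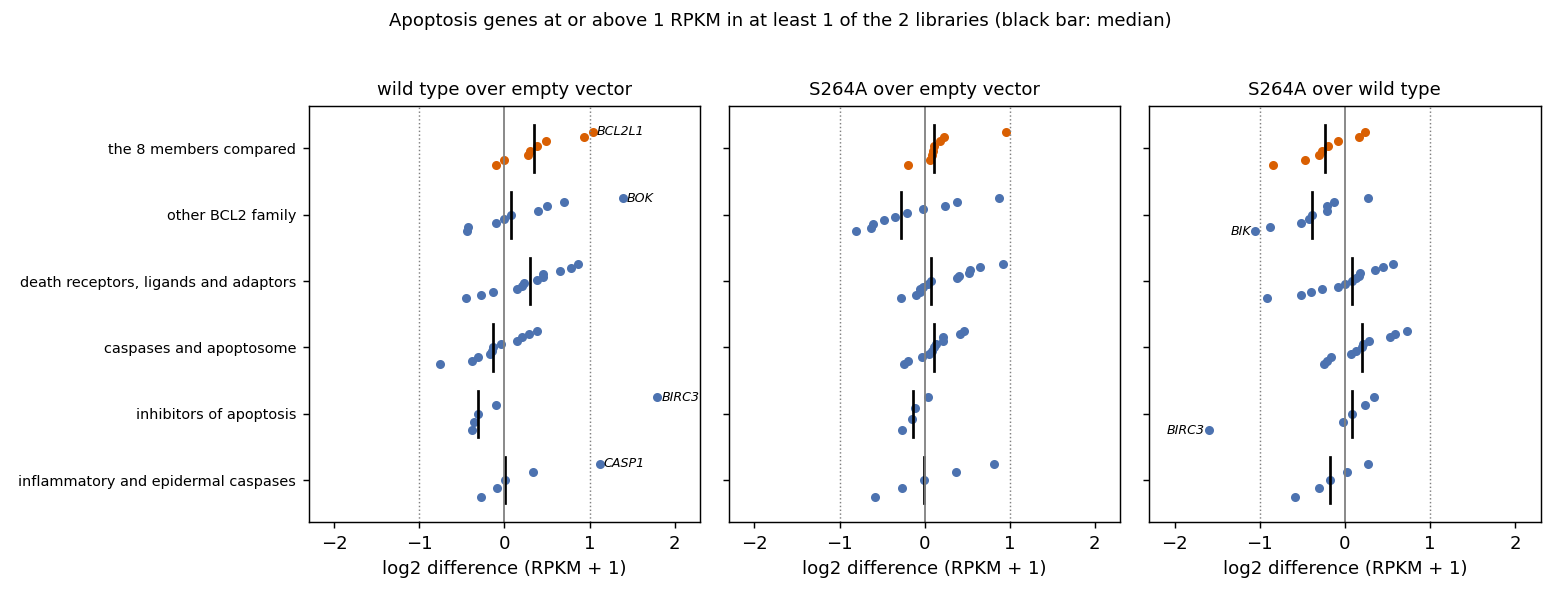
Log2 difference on the RPKM + 1 scale (horizontal axis) of the 8 members compared (orange, top) and of the genes of 5 apoptosis lists (blue), for wild type over empty vector, S264A over empty vector and S264A over wild type. Black bars are medians, dotted lines mark a 2-fold difference, and genes past it are named. BCL2L1, BOK, BIRC3 and CASP1 pass in the first panel, no gene passes in the second, and BIK and BIRC3 pass on the lower side in the third.

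Pseudogenes, genes with clone names and symbols not in GENCODE 29 were left out of a search for genes of like pattern. Among the 10654 other genes that then reached 1 RPKM in any library, the 5 with log2 differences from empty vector closest to those of BCL2L1 in both THG-1 lines were BCAR3, ANKRD33B, GOLGA7B, BAIAP2L2 and CAPNS2. Their distances, over the 2 differences from 3 libraries, were between 0.033 and 0.047 on the scale of log2 (RPKM + 1). The added 1 RPKM shrinks the differences of low genes. BCAR3, an adaptor of integrin signalling, was at 13.9 RPKM in S264A, 14.5 RPKM in wild type and 6.70 RPKM with empty vector. In the same order ANKRD33B was at 1.71, 1.85 and 0.418 RPKM and GOLGA7B at 1.38, 1.57 and 0.216 RPKM. BAIAP2L2 was at 1.24, 1.40 and 0.185 RPKM and CAPNS2 at 4.49, 4.87 and 1.78 RPKM. The plain ratios of these low genes over empty vector were larger than those of BCL2L1. With 3 libraries such closeness is a description of these levels only.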

How the data were processed

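RNA sequencing values of 3 HaCaT lines with 1 library each were used. Per the file headers, the table holds expression values and normalised expression values per gene. The first are RPKM made by the authors for each library, and the second were found to be RPKM quantile-normalised across libraries by the authors. The submitters' processing notes name build hg19, and no aligner or counter is stated.

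The depth of each library was recovered from the steps of single-exon genes, and the reads of each gene from the length at which all 3 values came out whole within 0.001 reads, nearest to the GENCODE 29 exon length. For BCL2A1 a length of 109 bases also came within this tolerance, but missed a whole read by 0.000918, against 6.41e-09 at 1089 bases. For BCL2L11 and BID a shorter length also fitted, with fewer reads and wider intervals. Ratios of RPKM have exact Clopper-Pearson 95% intervals, and levels have exact Poisson ones. The shares of all genes with an interval above or below 1 are over genes with reads in both libraries and 1 RPKM in either; a gene with no annotated length took its smallest fitting length. Fold counts used log2 of RPKM + 1, genes that reached 1 RPKM in either library compared, and a 2-fold threshold. GSDME was read as DFNA5, and PECAM1 was not analysed here. Named list genes are those past the fold rule in any comparison, filled up to 3 by level, and the 5 genes nearest to the member with the largest difference. Other list genes, BCL2, BCL2L2, TNFRSF10D and RIPK3 among them, were named outside this rule. No test was run. The scripts were tested on simulated data. The members and lists were chosen with earlier results of these data known. Promoters are from RefSeq. Python 3.11.15, pandas 2.3.3, scipy 1.17.1 and matplotlib 3.10.9 were used, and 7 alternatives were tried.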

Additional observations from a re-analysis of the deposited data

How the results depend on the processing

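No paired analysis was possible because each line had 1 library, and for the same reason no replicate could be left out. The count of members at least 2-fold higher in wild type than with empty vector (1) was 0 with upper-quartile scaling, equal-sum scaling, the quantile-normalised columns or a pseudocount of 5, and 2 with a pseudocount of 0.1, where BID was added. The other members' counts stayed at 0 under all 7 alternatives.

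Over all genes, higher and lower counts for wild type against empty vector were 869 and 492 with a pseudocount of 0.1, 166 and 18 with a pseudocount of 5, and 317 and 70 with a filter at 5 RPKM. For S264A against empty vector they were 695 and 246, 85 and 9, and 178 and 26 in the same order, and for S264A against wild type 509 and 518, 26 and 63, and 71 and 149. With upper-quartile scaling the lower counts were 360 for wild type and 177 for S264A against empty vector.

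Among the lists, a pseudocount of 0.1 gave 3 higher death receptor genes, 1 higher inflammatory caspase and 1 lower BCL2 family gene for S264A against empty vector, and 1 higher death receptor gene and 2 lower BCL2 family genes for S264A against wild type. The BCL2 family count of 1 lower in S264A than in wild type (BIK) was 0 with a pseudocount of 5, the quantile-normalised columns and both scalings. The inhibitor counts of 1 (BIRC3) were 0 with a pseudocount of 5 or a filter at 5 RPKM, in both comparisons with wild type. The inflammatory caspase count of 1 (CASP1) was 0 with these and with upper-quartile scaling.

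The anti-apoptotic sum was 92.4 RPKM in S264A, 83.8 RPKM in wild type and 75.1 RPKM with empty vector with upper-quartile scaling, 99.1, 83.9 and 70.6 RPKM in the quantile-normalised columns, and 84.7 RPKM in wild type and 70.6 RPKM with empty vector with equal-sum scaling. The BH3-only sum was 20.8 RPKM in wild type and 16.1 RPKM with empty vector with upper-quartile scaling. The cause of these moves was not tested beyond the construction of each alternative.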
